A study of Mus musculus with 31 samples.

Results

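The CC chemokine genes examined here are Ccl2, Ccl3, Ccl4, Ccl5, Ccl6, Ccl7, Ccl9, Ccl12, Ccl22 and Ccl24. They were taken by symbol, and all 10 were found among the 24411 entries of a table of gene counts. RNA had been sequenced from mouse monocytes sorted as CD11b+, Ly6G-, Ly6C-high and MHC-II-, all from C57BL/6J animals. The libraries fall into 3 groups of 3: blood of healthy mice (healthy blood), blood of mice carrying subcutaneous Lewis lung carcinoma, a transplantable mouse lung tumor line called LLC (LLC blood), and the LLC tumors themselves (LLC tumor). The labels name no further treatment or genetic change and give neither the age nor the sex of the mice, whether animals were pooled, nor whether blood and tumor came from the same animal. P-values therefore measure the spread between these libraries, part of which may be technical. In the deposited table the blood columns are headed with the letters BM, taken here to mean blood monocyte since every such title names blood; a reading as bone marrow is not decided by the values.

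CC chemokines are small secreted proteins, named for a pair of adjacent cysteines, that bind G protein-coupled receptors on leukocytes and draw those cells along a concentration gradient. Ligands of CCR2 bring Ly6C-high monocytes out of the marrow and into inflamed tissue and tumors, ligands of CCR1 act on monocytes and T cells, and ligands of CCR3 and CCR4 act mainly on eosinophils and on some T cells. Monocytes and macrophages make many of these ligands themselves, and several genes are switched on quickly by inflammatory signals.

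Library totals ran from 10457492 to 20706412 counts. At these totals 3 counts, the number taken here as the detection floor, correspond to 0.145 to 0.287 CPM (counts scaled to a common library total). CPM values are not corrected for gene length, so levels are compared between libraries and not between genes. The 10 Ly6C-high monocyte markers summed to 37485 to 41687 CPM in healthy blood, 29055 to 31934 CPM in LLC blood and 17034 to 20946 CPM in LLC tumor, with none of them at 0 in any library. Lyz2 held the largest part of each sum (means of 27021, 17289 and 7912 CPM). Means of Vcan (173, 909 and 1699 CPM) and Itgam (922, 1439 and 3405 CPM) rose instead. From LLC blood to LLC tumor 3 of the 10 were higher and 6 lower at an edgeR adjusted p under 0.05 (29.6% and 31.7% of all genes). Transcripts of MHC-II, which the sort had selected against as protein, were present too, and 4 sorted-out markers (H2-Aa, H2-Ab1, H2-Eb1 and Cd74) summed to 1041 to 1659 CPM in healthy blood, 409.5 to 635 CPM in LLC blood and 315 to 619 CPM in LLC tumor. In sorted bulk RNA, fewer cells of a type and less RNA per cell cannot be told apart.

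In LLC tumor monocytes 6 of the 10 genes (Ccl2, Ccl3, Ccl4, Ccl7, Ccl12 and Ccl24) stood far above both blood groups. Ccl9 was 2.02-fold above healthy blood in the edgeR fit, and Ccl6 overlapped with healthy blood in CPM on plain library totals. Ccl22 stayed near the detection floor, and Ccl5 was high in healthy blood alone. In blood, tumor-bearing mice had lower levels than healthy mice of 5 genes (Ccl3, Ccl4, Ccl5, Ccl6 and Ccl12), and no member was higher. Of the 10 genes, 9 passed the filter on low counts and were tested with edgeR across 12337 genes, with a call at an adjusted p under 0.05, and Ccl22 did not pass. Ccl12 and Ccl24 passed the filter through their tumor libraries, so their places among the tested genes are not independent of the tumor contrast. Between LLC blood and healthy blood, 5 of the 9 were called lower and none higher, where 9.61% of all genes tested were called lower and 14% higher. The count of 5 became 2 (Ccl3 and Ccl5) without healthy blood 1 and 1 (Ccl5) without healthy blood 3, LLC blood 2 or LLC blood 3. It includes Ccl12, so it too depends in part on the filter. In a fit of the 6 blood libraries alone, 7 members were tested, Ccl12 not among them. There 5 were called lower, with Ccl9 in place of Ccl12. From LLC blood to LLC tumor, 8 of the 9 were called higher and none lower, against 29.6% and 31.7% of all genes. From healthy blood to LLC tumor, 7 were called higher and 1 lower, against 33.5% and 33% of all genes. The 8 and the 7 both include Ccl12 and Ccl24, so these counts depend in part on the filter. Apart from them, Ccl2, Ccl3, Ccl4, Ccl6, Ccl7 and Ccl9 were called higher over LLC blood. The same genes without Ccl6 were called higher over healthy blood. Libraries that did not overlap were counted in CPM on plain library totals, Ccl22 included. So counted, 6 of the 10 members were lower and none higher in LLC blood than healthy blood (23.8% and 27.6% of all genes tested). In LLC tumor 9 were higher and none lower than in LLC blood (23.5% and 44.8%). Against healthy blood 7 were higher (26.9%) and 1 lower (43.7%) in LLC tumor. The members' median log2 fold changes, with Ccl12 and Ccl24 included, were -1.15, 6.04 and 3.96 in these comparisons. Over all genes tested they were -0.01, -0.03 and -0.00. The 3 comparisons share libraries, so they are not independent of one another.

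**Figure D1:**
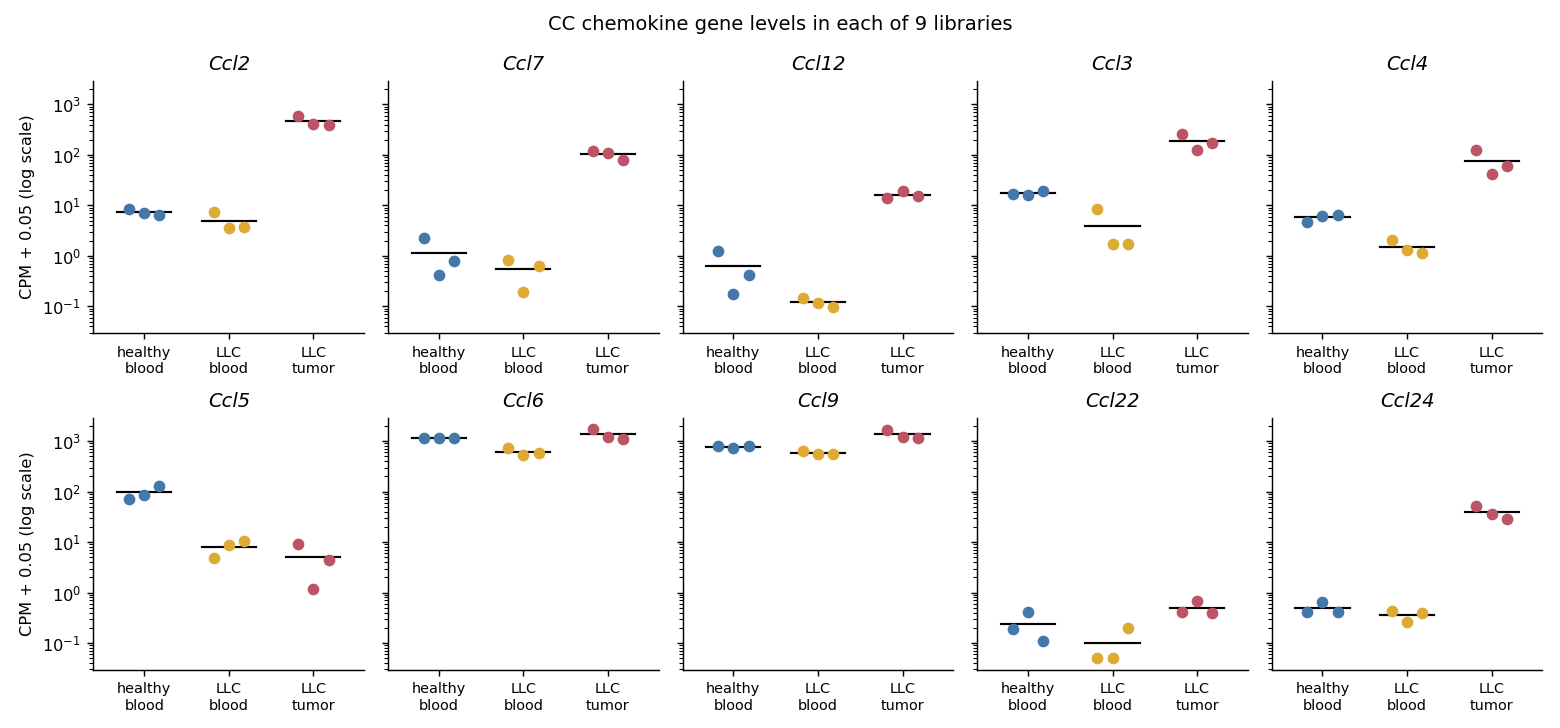
Levels of the 10 CC chemokine genes in each of the 9 libraries, as CPM plus an offset of 0.05 on a log axis, with 1 point per library (replicates 1 to 3 from left to right in each group) and a bar at the group mean. Ccl2, Ccl7, Ccl12, Ccl3, Ccl4 and Ccl24 stand far above both blood groups in the 3 tumor libraries, Ccl5 is high in healthy blood only, and Ccl6 and Ccl9 are high everywhere.

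Ccl2, Ccl7 and Ccl12 lie close together on chromosome 11 and encode ligands of CCR2, the receptor that marks Ly6C-high monocytes. All 3 were at 8.58 CPM or less in blood and rose strongly in the tumor. Ccl2 (ENSMUSG00000035385, GRCm38.p6 chr11:82035577-82037452) encodes the main attractant of CCR2-bearing monocytes. It was at 8.58, 6.88 and 6.31 CPM in the 3 healthy blood libraries, at 7.27, 3.60 and 3.77 CPM in LLC blood, and at 599, 403 and 393 CPM in LLC tumor. The tumor libraries were apart from all blood libraries, whereas the blood groups overlapped. Ccl2 rose 117-fold from LLC blood to LLC tumor (log2 fold change 6.87 ± 0.37 SE, edgeR adjusted p = 6.29e-07) and 74.3-fold from healthy blood (6.21 ± 0.35 SE, edgeR adjusted p = 7.25e-07). In blood its log2 difference of -0.65 ± 0.36 SE was not called (edgeR adjusted p = 0.222), but it was called lower without LLC tumor 1 (-0.72, edgeR adjusted p = 0.0426) and with limma-voom (-0.86, adjusted p = 0.0121).

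Ccl7 (ENSMUSG00000035373, chr11:82045712-82047525), whose product attracts monocytes through CCR2 and also binds CCR1 and CCR3, had 31, 6 and 12 counts in the healthy blood libraries and 8, 2 and 12 in LLC blood. In LLC tumor it had 1352, 1206 and 937 counts, or 122, 107 and 81.0 CPM. The tumor libraries did not overlap with either blood group. Ccl7 rose by 7.94 ± 0.54 SE on the log2 scale over LLC blood (edgeR adjusted p = 2.35e-06) and by 6.78 ± 0.48 SE over healthy blood (edgeR adjusted p = 2.66e-06). The second value became 7.71 without healthy blood 1, the library holding 31 of the 49 healthy blood counts. Between the blood groups its log2 difference of -1.15 ± 0.76 SE was not called (edgeR adjusted p = 0.307), and it was -0.21 without healthy blood 1.

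Ccl12 (ENSMUSG00000035352, chr11:82101845-82103399) encodes another CCR2 ligand, found in mice. It had 17, 2 and 6 counts in healthy blood, 1 count in each LLC blood library, and 158, 214 and 176 counts in LLC tumor, the last equal to 14.3, 19.0 and 15.2 CPM. Each LLC blood library was therefore under the floor of 3 counts. The rate of Ccl12 counts in LLC tumor was 246 times that in LLC blood. The exact 95% interval of 83.6 to 1195 covers counting error only. On the log2 scale edgeR gave 7.93 ± 0.68 SE over LLC blood. Over healthy blood it gave 5.02 ± 0.52 SE, which became 6.14 without healthy blood 1. Because Ccl12 passed the filter on low counts through its tumor libraries, no p-value is given for its tumor comparisons. In blood Ccl12 was called lower in the tumor-bearing mice (-2.91 ± 0.87 SE, edgeR adjusted p = 0.0392), with 3 counts in all against 25. This call was lost without healthy blood 1, which held 17 of the 25 counts (-1.78, edgeR adjusted p = 0.131), and without any of 5 other libraries (edgeR adjusted p from 0.0515 to 0.149). With the 6 blood libraries alone Ccl12 did not pass the filter on low counts.

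A promoter sequence for this group was at hand for Ccl12 and is shown because the gene's tumor level was so far from its blood level. It comes from RefSeq (GRCm38.p6, chr11:82101595-82101894, plus strand) and runs from 250 bases before to 50 after the start of the gene. Capitals mark matches to TATAAA, the core of a TATA box, and to AGGAAG, a core bound by ETS factors, on either strand, so that AGGAAG reads CTTCCT here.
Ccl12 promoter: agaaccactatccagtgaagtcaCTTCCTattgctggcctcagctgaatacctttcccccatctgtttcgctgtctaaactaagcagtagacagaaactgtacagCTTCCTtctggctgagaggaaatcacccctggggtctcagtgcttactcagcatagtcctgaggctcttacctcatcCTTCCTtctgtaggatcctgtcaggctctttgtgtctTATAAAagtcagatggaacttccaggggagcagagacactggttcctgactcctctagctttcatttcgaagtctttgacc
The TATAAA match begins 31 bases before the start, and the AGGAAG matches begin 227, 145 and 68 bases before it. TATAAA occurs in 13.6% and AGGAAG in 35.4% of the 32851 RefSeq promoters of the same length. Matches of letters do not show that a factor binds there.

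The ratio of Ccl2 to Ccl7 counts was 3.87, 18.7 and 8.58 in healthy blood, 9.50, 26.0 and 6.50 in LLC blood, while it was 4.91, 3.77 and 4.85 in LLC tumor. The tumor ratios lay below all LLC blood ratios, a log2 difference of -1.39 with a pooled SD of 0.75, but overlapped with those of healthy blood. A two-sided exact permutation test gave p = 0.1 for the first contrast, the smallest value that 3 against 3 libraries allow, and 0.3 after Benjamini-Hochberg adjustment over 9 such contrasts. Only 2 to 31 Ccl7 counts per blood library lie behind the blood ratios.

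Ccl3, Ccl4 and Ccl5 belong to the second cluster on chromosome 11 and encode inflammatory attractants of monocytes and T cells, with the products of Ccl3 and Ccl5 binding CCR1. Ccl3 and Ccl4 fell in the blood of tumor-bearing mice and rose in the tumor, while Ccl5 fell in that blood and stayed low in the tumor. Ccl3 (ENSMUSG00000000982, chr11:83647843-83649378), the inflammatory protein MIP-1alpha, was at 16.6, 16.2 and 18.9 CPM in healthy blood, 8.32, 1.66 and 1.69 CPM in LLC blood and 264, 125 and 173 CPM in LLC tumor. The 3 groups did not overlap, and within LLC blood the first library lay nearest to healthy blood. Ccl3 fell between the blood groups (-2.33 ± 0.58 SE on the log2 scale, edgeR adjusted p = 0.0192). It rose from LLC blood to LLC tumor by 6.00 ± 0.60 SE (edgeR adjusted p = 2.65e-05) and from healthy blood by 3.67 ± 0.51 SE (edgeR adjusted p = 0.00018). Without LLC blood 1 the first of these became -3.37 and the second 7.02, and the blood call was lost without healthy blood 3, LLC blood 2 or LLC blood 3 (edgeR adjusted p from 0.0627 to 0.0883).

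Ccl4 (ENSMUSG00000018930, chr11:83648624-83664683), the related MIP-1beta, was at 4.72, 6.08 and 6.50 CPM in healthy blood, 2.01, 1.25 and 1.11 CPM in LLC blood and 125, 42.5 and 60.8 CPM in LLC tumor. No 2 groups overlapped. Ccl4 fell in blood (-2.08 ± 0.58 SE, edgeR adjusted p = 0.0302) and rose in the tumor over LLC blood (6.04 ± 0.55 SE, edgeR adjusted p = 1.51e-05) and over healthy blood (3.96 ± 0.47 SE, edgeR adjusted p = 6.16e-05). LLC tumor 1 held the highest value, and without it the last 2 became 5.35 and 3.21. The blood call was lost without any 1 of 5 blood libraries, all but LLC blood 1 (edgeR adjusted p from 0.0532 to 0.119). RefSeq draws the spans of Ccl3 and Ccl4 as overlapping, and the strand setting of the counting was not given in the sources used here, so reads in the shared stretch could count for either gene. The ratio of Ccl3 to Ccl4 counts was 3.52, 2.66 and 2.92 in healthy blood, 4.14, 1.33 and 1.52 in LLC blood, then 2.11, 2.93 and 2.85 in LLC tumor, with all groups overlapping (two-sided exact permutation p of 0.4 to 0.6, smallest possible 0.1, and 0.6 for each after adjustment over 9 contrasts).

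Ccl5 (ENSMUSG00000035042, chr11:83525778-83530518), also called RANTES, is made in quantity by activated T and NK cells as well as by macrophages. It was at 70.8, 87.2 and 131 CPM in healthy blood, 4.88, 8.78 and 10.6 CPM in LLC blood and 9.30, 1.15 and 4.41 CPM in LLC tumor. Healthy blood stood above both other groups, which overlapped. Compared with healthy blood, Ccl5 was 11.9-fold lower in LLC blood (-3.57 ± 0.55 SE on the log2 scale, edgeR adjusted p = 0.00227) and 16.7-fold lower in LLC tumor (-4.06 ± 0.59 SE, edgeR adjusted p = 0.000231). The second difference was -5.05 without LLC tumor 1. From LLC blood to LLC tumor the log2 difference of -0.50 ± 0.60 SE was not called (edgeR adjusted p = 0.495). It was 0.01 without LLC tumor 2 (edgeR adjusted p = 0.982) and -1.45, then called lower, without LLC tumor 1 (edgeR adjusted p = 0.0391).

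Markers of NK and T cells, like Ccl5, were lower in both other groups than in healthy blood. The 12 NK cell markers summed to 253, 379 and 577 CPM in healthy blood. Their sums were 41.5, 53.4 and 65.5 CPM in LLC blood and 17.4, 8.69 and 7.78 CPM in LLC tumor. Against healthy blood, all 12 were called lower in both other groups (9.61% of all genes for LLC blood and 33% for LLC tumor). From LLC blood to LLC tumor, where Ccl5 was not called, 9 of the 12 were called lower (31.7% of all genes). Among the tumor libraries Klre1 was the one NK marker at 0 in all 3. The 10 T cell markers summed to 50.2 to 225 CPM in healthy blood, 6.36 to 11.4 CPM in LLC blood and 2.25 to 4.08 CPM in LLC tumor. Per CPM of the NK marker sum, Ccl5 amounted to 0.227 to 0.280 CPM in healthy blood, 0.118 to 0.165 CPM in LLC blood and 0.133 to 0.567 CPM in LLC tumor. Within both blood groups the library order of Ccl5 was that of the NK marker sum, but within LLC tumor it was not. The part of NK and T cell RNA in the Ccl5 result was not tested. Ccl3, which NK cells also make, amounted to 0.0328 to 0.0656 CPM per CPM of the NK marker sum in healthy blood, against 0.0258 to 0.2005 CPM in LLC blood, and Ccl4 to 0.0113 to 0.0187 CPM against 0.0169 to 0.0484 CPM. In LLC tumor both genes were at their highest while the NK marker sums were the lowest of the 3 groups.

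**Figure D2:**
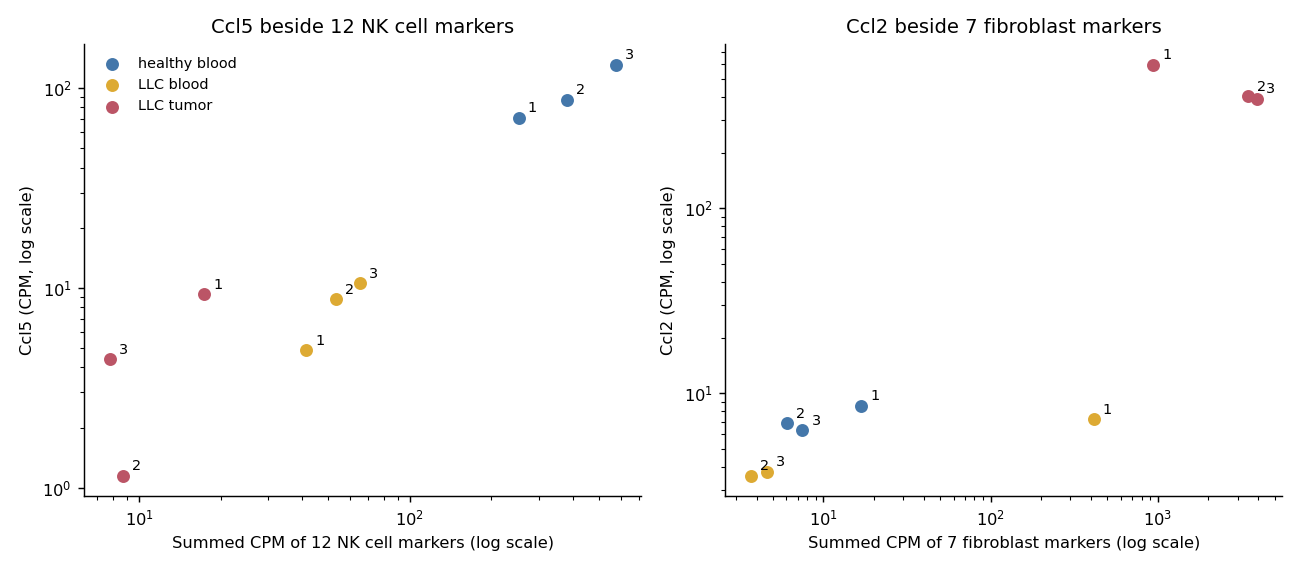
Left, Ccl5 against the summed level of 12 NK cell markers, and right, Ccl2 against the summed level of 7 fibroblast markers, both in CPM on log axes with 1 numbered point per library. Healthy blood holds the highest Ccl5 and the highest NK marker sums, and LLC tumor 1 has the highest Ccl2 level with the lowest fibroblast sum of the 3 tumor libraries.

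Ccl6 and Ccl9 encode CCR1 ligands that myeloid cells make without stimulation, and both were at 543 CPM or more in every library. They rose 2.58-fold and 2.75-fold from LLC blood to LLC tumor. Ccl6 (ENSMUSG00000018927, chr11:83587886-83593087) was at 1159.5, 1157 and 1154 CPM in healthy blood, 723, 543 and 594 CPM in LLC blood and 1724, 1234 and 1114 CPM in LLC tumor. The LLC blood libraries lay below all others, while tumor and healthy blood overlapped in these plain CPM values. The TMM scaling factors behind the fold changes were 0.798 to 0.999 in LLC tumor and 1.0334 to 1.0365 in healthy blood. They raise the tumor values relative to healthy blood, so the overlap belongs to the plain CPM scale. Ccl6 fell in blood (-0.93 ± 0.23 SE on the log2 scale, edgeR adjusted p = 0.0173) and rose from LLC blood to LLC tumor (1.36 ± 0.23 SE, edgeR adjusted p = 0.000645). The blood call was lost without healthy blood 1, healthy blood 3, LLC blood 2 or LLC blood 3 (edgeR adjusted p from 0.052 to 0.0747). Against healthy blood the tumor value of 0.44 ± 0.23 SE was not called (edgeR adjusted p = 0.112), though it was without LLC tumor 3 (0.60, edgeR adjusted p = 0.043) and with DESeq2 (0.48, adjusted p = 0.0463). Ccl6 lies within the span of E230016K23Rik, a long noncoding RNA at 19.97 to 24.3 CPM in healthy blood, 8.85 to 17.7 CPM in LLC blood and 6.31 to 10.0 CPM in LLC tumor, so reads of the pair cannot be fully told apart without strand.

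Ccl9 (ENSMUSG00000019122, chr11:83572917-83578636) was at 804, 746 and 795 CPM in healthy blood, 624, 563 and 567 CPM in LLC blood and 1698, 1231 and 1176 CPM in LLC tumor. The 3 groups did not overlap. It rose from LLC blood to LLC tumor (1.46 ± 0.20 SE on the log2 scale, edgeR adjusted p = 0.000204) and from healthy blood to LLC tumor (1.01 ± 0.20 SE, edgeR adjusted p = 0.0016). In blood its difference of -0.45 ± 0.20 SE was not called (edgeR adjusted p = 0.139), although it was under 4 of the alternatives, among them the fit to the 6 blood libraries alone (-0.45, edgeR adjusted p = 0.000955) and the fit without LLC tumor 1 (-0.50, edgeR adjusted p = 0.000757).

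Ccl6 counts were 1.44, 1.55 and 1.45 times the Ccl9 counts in healthy blood, 1.16, 0.963 and 1.05 times in LLC blood and 1.02, 1.00 and 0.948 times in LLC tumor. Healthy blood lay above both other groups, which overlapped with each other. The log2 ratio was lower by 0.49 in LLC blood (pooled SD 0.10) and lower by 0.58 in LLC tumor (pooled SD 0.06) than in healthy blood, each with a two-sided exact permutation p of 0.1, the smallest possible, and 0.3 after adjustment over the 9 contrasts. Both counts of each ratio come from 1 library, so its scaling cancels.

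**Figure D3:**
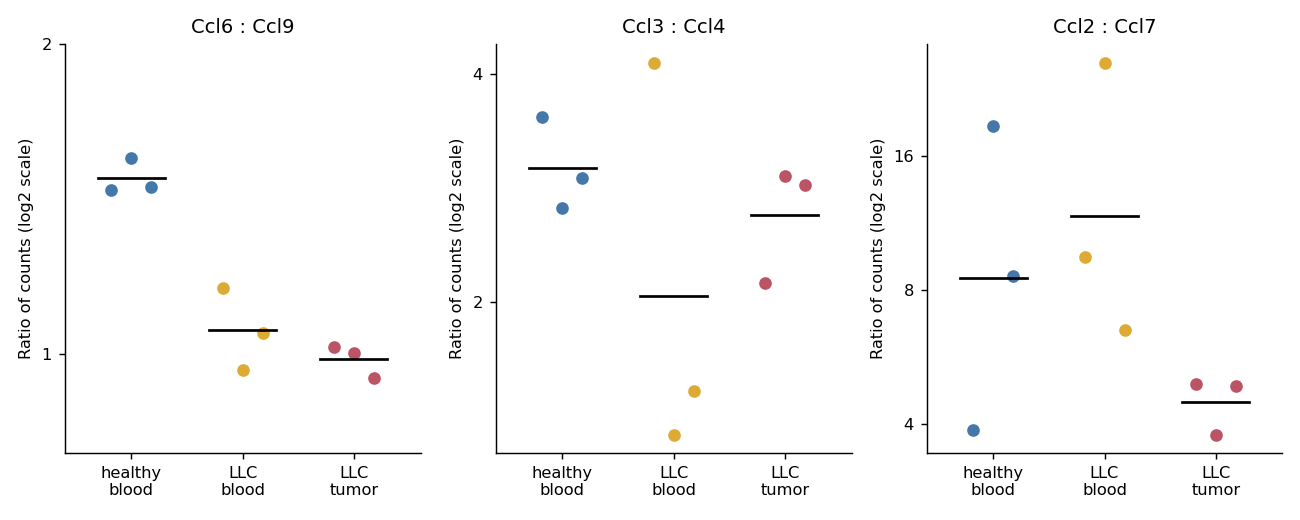
Ratio of counts within a library for Ccl6 to Ccl9, Ccl3 to Ccl4 and Ccl2 to Ccl7, on log2 axes that do not start at 0, with 1 point per library and a bar at the geometric mean. The Ccl6 to Ccl9 ratio is 1.44 to 1.55 in healthy blood and 0.948 to 1.16 in the other 6 libraries, while the Ccl3 to Ccl4 ratios of the 3 groups overlap.

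The promoters of Ccl6 and Ccl9 are shown because these neighbouring genes had the most similar pattern of any pair of members over the libraries and share a stretch of sequence. Both come from RefSeq (GRCm38.p6, minus strand, 250 bases before to 50 after the start), Ccl6 at chr11:83593038-83593337 and Ccl9 at chr11:83578587-83578886. Capitals mark the stretch that a local alignment of the pair found.
Ccl6 promoter: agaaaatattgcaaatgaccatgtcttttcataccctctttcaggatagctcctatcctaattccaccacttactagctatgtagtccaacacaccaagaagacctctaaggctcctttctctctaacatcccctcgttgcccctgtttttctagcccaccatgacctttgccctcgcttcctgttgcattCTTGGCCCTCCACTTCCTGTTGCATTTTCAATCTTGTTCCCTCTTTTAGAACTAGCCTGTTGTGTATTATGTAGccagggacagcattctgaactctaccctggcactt
Ccl9 promoter: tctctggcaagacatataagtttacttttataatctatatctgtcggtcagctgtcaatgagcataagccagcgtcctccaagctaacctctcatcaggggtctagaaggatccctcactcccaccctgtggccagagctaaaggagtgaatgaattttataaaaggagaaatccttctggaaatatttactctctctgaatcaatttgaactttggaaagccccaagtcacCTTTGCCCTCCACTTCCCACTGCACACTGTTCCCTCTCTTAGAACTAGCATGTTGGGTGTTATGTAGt
The aligned stretch spans 74 columns, of which 58 (78.4%) are identical and 7 are gaps, and its longest identical run is 13 bases. In Ccl6 it runs from 59 bases before to 15 after the start and in Ccl9 from 18 before to 49 after, so the annotated starts sit at different places in it. Ccl9 held a match to the NF-kB motif (GGG, any 2 bases, TTTCC) on the opposite strand 35 bases before its start, one to the AP-1 motif TGANTCA 53 bases before it, and matches to TATAAA on either strand 224, 94 and 92 bases before it, the last 2 of which overlap. NF-kB matches occur in 1.63% and AP-1 matches in 7.81% of all promoters in the table. Ccl6 held AGGAAG matches 73 and 47 bases before its start and no match to the other 3 motifs. Among the 5 members with a promoter in the table, Ccl22 had an AGGAAG match 17 bases before its start and Ccl3 matched none of the 4 motifs. Sequences for Ccl2, Ccl4, Ccl5, Ccl7 and Ccl24 were not used here.

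Ccl24 (ENSMUSG00000004814, chr5:135569935-135573123) encodes eotaxin-2, a CCR3 ligand that attracts eosinophils and is made by alternatively activated macrophages. It had 5, 10 and 6 counts in healthy blood, 4, 3 and 7 in LLC blood, but 579, 400 and 326 in LLC tumor, the last equal to 52.3, 35.5 and 28.2 CPM. The blood groups overlapped near the floor, and the tumor libraries were far above them. Its rate in LLC tumor was 125 times that in LLC blood (exact 95% interval 74.4 to 229.9, counting error only). On the log2 scale edgeR gave 7.17 ± 0.42 SE over LLC blood and 6.61 ± 0.40 SE over healthy blood. Because Ccl24 passed the filter on low counts through its tumor libraries, no p-value is given for its tumor comparisons. Between the blood groups -0.56 ± 0.64 SE was not called (edgeR adjusted p = 0.566).

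Ccl22 (ENSMUSG00000031779, chr8:94745684-94751388) encodes a CCR4 ligand made by dendritic cells and macrophages that attracts regulatory T cells. It had 2, 6 and 1 counts in healthy blood, 0, 0 and 3 in LLC blood, then 4, 7 and 4 in LLC tumor. These counts sit near the floor in every library, and the gene was not tested. Its rate in LLC tumor was 6.72 times that in LLC blood (exact 95% interval 1.902 to 36.2, counting error only) and 2.29 times that in healthy blood (0.938 to 5.93). In a fit without the filter, the tumor value over LLC blood was 2.79 ± 1.01 SE (edgeR adjusted p = 0.0396), from 15 counts against 3. The same fit gave 1.27 ± 0.87 SE over healthy blood (edgeR adjusted p = 0.263). Between the blood groups it gave -1.52 ± 1.06 SE (edgeR adjusted p = 0.429).

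**Figure D4:**
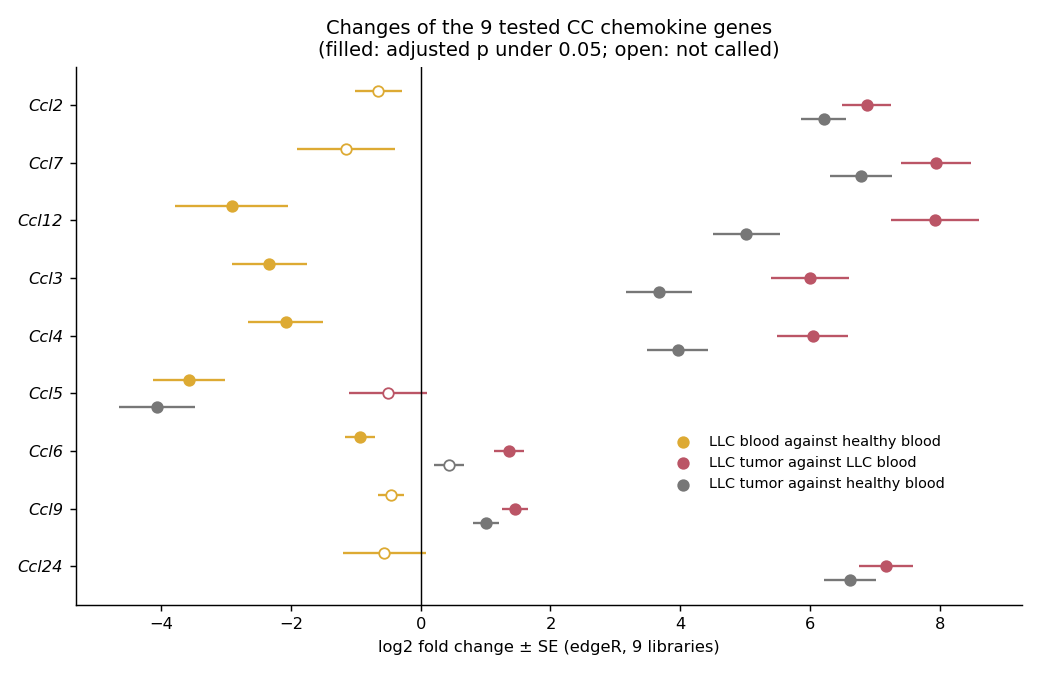
Log2 fold changes with standard errors for the 9 tested CC chemokine genes in the 3 comparisons, from 1 edgeR fit of 9 libraries, with filled points for calls at adjusted p under 0.05 and open points otherwise. Between LLC blood and healthy blood all 9 values are below 0 and 5 are filled, and in the tumor comparisons 6 genes lie above 3 while Ccl5 is the only gene below 0. Ccl12 and Ccl24 passed the filter through their tumor libraries, so their filled tumor points are not independent of that filter.

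By position, 8 of the 10 genes sit in 2 runs on chromosome 11. Ccl2, Ccl7 and Ccl12 span 67.8 kb, and Ccl5, Ccl9, Ccl6, Ccl3 and Ccl4 span 138.9 kb. In the first run all 3 members rose in LLC tumor by 6.87 to 7.94 on the log2 scale over LLC blood. In the second, values ran from -0.50 for Ccl5 at one end through 1.46 and 1.36 for Ccl9 and Ccl6 to 6.00 and 6.04 for Ccl3 and Ccl4 at the other. Ccl11, the gene of eotaxin, and Ccl8 lie on either side of Ccl12 and were named after their values were seen. Ccl11 had no count in any blood library and 27, 50 and 89 counts in LLC tumor, at least 74.4-fold higher than LLC blood against a floor of 3 counts over the group. Ccl8 had no count in LLC blood but 8, 42 and 29 in LLC tumor, at least 35.4-fold higher on the same floor. Both passed the filter on low counts through their tumor libraries alone, so no test is given for them. Of 11 other CC chemokine genes 3 passed the filter, and 4 (Ccl1, Ccl20, Ccl21a and Ccl26) had no count in any library.

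**Figure D5:**
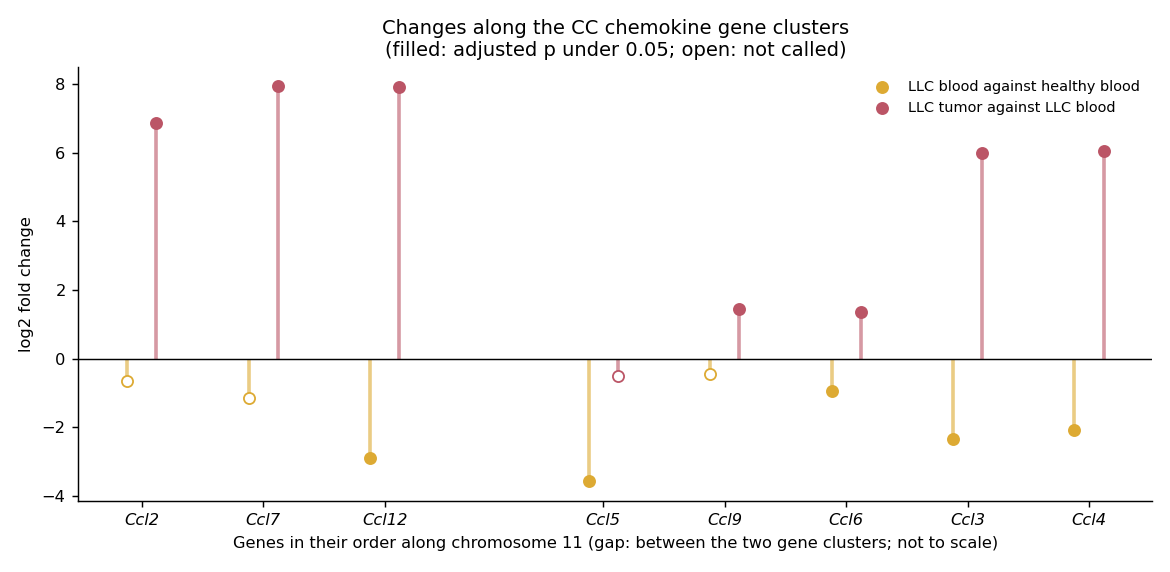
Log2 fold changes of the 8 CC chemokine genes of chromosome 11, in their order along it, for LLC blood against healthy blood and LLC tumor against LLC blood, with filled points for calls at adjusted p under 0.05. The 3 genes of the first run all lie above 6 in the tumor comparison, whereas the second run holds values from -0.50 (Ccl5) to 6.04 (Ccl4). Ccl12 passed the filter through its tumor libraries, so its filled tumor point is not independent of that filter.

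Several markers of other cell types were higher in the tumor libraries, beside the chemokines. The 7 fibroblast markers summed to 938, 3470 and 3929 CPM in LLC tumor, against 6.02 to 16.9 CPM in healthy blood. Of the 7, 4 were called higher and none lower in LLC tumor than in LLC blood (29.6% and 31.7% of all genes). Dcn, Lum and Pdgfra passed the filter on low counts through their tumor libraries, so this count depends in part on the filter. LLC blood 1 held 414 CPM of them and LLC blood 2 and LLC blood 3 held 3.67 and 4.59 CPM. Col1a1 (212 CPM) and Col1a2 (131 CPM) gave most of the LLC blood 1 sum, whereas Col3a1 (mean 2204 CPM) gave most of the tumor sums. LLC blood 1 was also the highest of its group for Ccl2, Ccl3, Ccl4, Ccl6, Ccl7, Ccl9 and, near the floor, Ccl24, and the lowest for Ccl5. Among the tumor libraries the fibroblast sum was lowest in LLC tumor 1, where Ccl2, Ccl3, Ccl4, Ccl5, Ccl6, Ccl7, Ccl9 and Ccl24 were highest, and Ccl11 and Ccl8 had their lowest counts there. The 7 epithelial tumor cell markers summed to 63.1 to 101 CPM in LLC tumor and to 1.35 to 2.77 CPM in blood. In LLC tumor Cdh1 averaged 50.1 CPM, the largest part of that sum, with Krt18 at 20.3 CPM and Krt8 at 9.40 CPM. Epcam (0.058 CPM) and Krt19 (0.086 CPM) were near 0 there, and Sftpc and Nkx2-1 were at 0 in all 3 tumor libraries. The 6 platelet markers summed to 139 to 222 CPM in LLC tumor and 3.43 to 19.7 CPM in blood, a sum carried in LLC tumor by Pf4 (100.1 CPM on average) and Ppbp (89.4 CPM), while Itga2b averaged 4.05 CPM in healthy blood and 1.21 CPM in LLC tumor and Gp9, Gp1bb and Gp6 likewise had lower means in LLC tumor than in healthy blood. The 9 mature macrophage markers summed to 2501 to 3562 CPM in LLC tumor, 786 to 835 CPM in LLC blood, with healthy blood at 1384 to 1579 CPM. Of these 9, 7 were called higher and 1 lower in LLC tumor, against either blood group. Adgre1 averaged 191 CPM in the tumor, under both of its blood means (294 CPM healthy, 329 CPM LLC). The tumor mean of Apoe, 716 CPM, was above that of LLC blood (330 CPM) but below the healthy mean of 1026 CPM. Whether such RNA came from other cells, and its part in the tumor levels, was not tested.

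Receptors for these ligands changed in both directions. Ccr1, the receptor for the products of Ccl3, Ccl5, Ccl6, Ccl7 and Ccl9, was at 27.4, 47.8 and 34.8 CPM in healthy blood, 69.3, 108 and 84.1 CPM in LLC blood and 634, 552 and 538 CPM in LLC tumor. It rose in blood (1.22 ± 0.24 SE on the log2 scale, edgeR adjusted p = 0.00611) and again from LLC blood to LLC tumor (2.94 ± 0.24 SE, edgeR adjusted p = 8.01e-06). Ccr2, the receptor for the products of Ccl2, Ccl7 and Ccl12, was at 1455 to 2093 CPM in healthy blood, 2030.3 to 2392 CPM in LLC blood and 1018 to 1309 CPM in LLC tumor. It fell from LLC blood to LLC tumor (-0.73 ± 0.21 SE, edgeR adjusted p = 0.0121), and the smaller call against healthy blood (-0.53, edgeR adjusted p = 0.0448) was lost under relative log expression scaling (-0.48, edgeR adjusted p = 0.0587). Of 14 receptor genes, 5 passed the filter, and 1 was called higher and 1 lower in blood, 2 higher and 1 lower in LLC tumor against LLC blood, where 29.6% of all genes were called higher and 31.7% lower (14% and 9.61% in blood). The gene called lower in blood was Ccr7, named after its values were seen (-3.89, edgeR adjusted p = 0.0256), with 11, 163 and 18 counts in healthy blood. Healthy blood 2, which held 163 of them, also had a B cell marker sum of 187 CPM against 23.2 and 30.1 CPM in the rest of its group, and the part of B cell RNA was not tested. Ccr3 and Ccr4, the receptors for the products of Ccl24 and Ccl22, had at most 7 counts in any library.

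NF-kB, a family of transcription factors that induces many CC chemokine genes, is held inactive by IkB proteins whose own genes it induces. Of 15 NF-kB pathway genes, all tested, 5 were called higher and 3 lower in LLC tumor against LLC blood (29.6% and 31.7% of all genes), and 2 higher and 3 lower in LLC blood against healthy blood (14% and 9.61%). The share called higher in LLC tumor was near that of all genes. Nfkbia, the gene of IkB-alpha, was at 205, 168 and 154 CPM in healthy blood, 122, 94.3 and 108 CPM in LLC blood and 1445, 657 and 803 CPM in LLC tumor (3.42 ± 0.36 SE over LLC blood, edgeR adjusted p = 3.28e-05). Nfkbie, the gene of IkB-epsilon, fell in blood (-0.74 ± 0.13 SE, edgeR adjusted p = 0.00466) and rose in the tumor over LLC blood (1.3 ± 0.14 SE, edgeR adjusted p = 3.39e-05). Nfkb1 and Ikbkb, which encode the p105 precursor subunit and a kinase of the pathway, fell from LLC blood to LLC tumor (-0.66 and -1.04, edgeR adjusted p = 3.8e-05 and 3.8e-06).

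Interferon signals induce Ccl5 and Ccl12 among other genes, through IRF and STAT factors. Of 10 IRF and STAT genes, all tested, none was called higher and 7 lower in LLC tumor against LLC blood (29.6% and 31.7% of all genes), and 8 were called lower against healthy blood (33%). In blood 1 was called higher and 1 lower (14% and 9.61%). Irf4, a factor of alternatively activated macrophages and dendritic cells, was at 99.3 to 115 CPM in healthy blood, 68.3 to 75.3 CPM in LLC blood and 4.79 to 8.40 CPM in LLC tumor (-3.36 ± 0.24 SE from LLC blood to LLC tumor, edgeR adjusted p = 3.54e-06). Stat2 (-0.69, edgeR adjusted p = 0.00264) and Irf3 (-0.61, edgeR adjusted p = 0.000134) fell as well.

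Ccl24 and Ccl22 are both induced in macrophages by IL-4, so genes of that response were set beside them. Of 10 such genes 9 were tested, and 7 were called higher and 2 lower in LLC tumor against LLC blood (29.6% and 31.7% of all genes). In blood 1 was called higher and 5 lower (14% and 9.61%). Arg1, the arginine-degrading enzyme arginase 1, was at 15.0, 4.61 and 7.17 CPM in healthy blood, 6.69, 2.91 and 2.80 CPM in LLC blood and 2581, 1756 and 1333 CPM in LLC tumor (9.15 ± 0.63 SE over LLC blood, edgeR adjusted p = 2.75e-06). Mrc1, the mannose receptor, rose from 6.13 to 8.42 CPM in LLC blood to 282 to 496 CPM in LLC tumor (6.04 ± 0.29 SE, edgeR adjusted p = 3.68e-07), and Il4ra, the IL-4 receptor chain, rose both in blood (1.13, edgeR adjusted p = 0.000707) and from LLC blood to LLC tumor (1.25, edgeR adjusted p = 4.54e-05). Clec10a, a lectin of IL-4-treated macrophages, fell from LLC blood to LLC tumor (-1.63 ± 0.10 SE, edgeR adjusted p = 1.35e-06), so the list did not move as one.

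Many chemokine mRNAs carry AU-rich elements in their tails that mark them for decay. Of 8 genes for proteins that act on such mRNAs, all tested, 3 were called higher and 1 lower in LLC tumor against LLC blood (29.6% and 31.7% of all genes), and 1 higher and 3 lower in blood (14% and 9.61%). The share called higher in LLC tumor was near that of all genes. Zfp36, the gene of the decay factor tristetraprolin, was at 808, 668 and 628 CPM in healthy blood, 610, 281 and 238 CPM in LLC blood and 1477, 1410 and 1379 CPM in LLC tumor (2.13 ± 0.33 SE over LLC blood, edgeR adjusted p = 0.000367). Its relative Zfp36l1 rose by 3.41 ± 0.33 SE (edgeR adjusted p = 1.96e-05) and Zc3h12a, the gene of the RNase Regnase-1, by 1.49 ± 0.18 SE (edgeR adjusted p = 9.19e-05), while Auh fell (-0.55, edgeR adjusted p = 0.000251).

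Genes with a pattern closest to each member were found over the 9 libraries as the smallest root mean square difference of log2(CPM + 1) values, each gene centred on its own mean, among the 6904 tested genes that averaged 20 CPM or more. These distances describe the same libraries in which the members were measured. The added 1 CPM flattens the changes of genes under 1 CPM in LLC blood, such as Ccl7, Ccl12 and Ccl24. For these a small distance does not mean a like fold change. Ccl2 was nearest to Hilpda (0.195), the gene of a lipid droplet protein induced by low oxygen, then to Cxcl1 (0.204), a neutrophil attractant of the CXC family, and Sdc1 (0.259). Ccl7 was nearest to Pdpn (0.251), the gene of podoplanin, then to Lhfpl2 (0.270) and to Ccl2 itself (0.301). Ccl12 was nearest to Cdkn1a (0.312), the gene of the cell cycle inhibitor p21, Ifrd1 (0.321) and Lrp12 (0.331). From LLC blood to LLC tumor the mean of Ccl12 went from 0.071 to 16.1 CPM and that of Cdkn1a from 36.1 to 622 CPM.

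Ccl3 was nearest to Ccl4 (0.501), then to Cd83 (0.563) and Phlda1 (0.588). Ccl4 in turn was nearer to Phlda1 (0.344), Cxcl16 (0.370) and Lif (0.374), a cytokine gene, than to Ccl3. Ccl24 lay closest to Cd14 (0.197), which encodes the LPS co-receptor and averaged 47.6 CPM in healthy blood, 49.4 CPM in LLC blood and 1611 CPM in LLC tumor, and to the lectin genes Clec4n (0.228) and Clec4d (0.239).

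The smallest distances of all were those of Ccl6 and Ccl9. Ccl6 was nearest to Ptp4a1 (0.097), Sdc3 (0.140) and Metrnl (0.152), and Ccl9 to Sqstm1 and Atf4 (each 0.104), genes of selective autophagy and of the stress response, and Zfp622 (0.124). Ccl5 had no near neighbour, with Lpl at 0.655, Tgtp2 at 0.737 and Gzmb, the granzyme B gene of NK and T cells, at 0.765. Between members the distance was 0.266 for Ccl6 and Ccl9, 0.301 for Ccl2 and Ccl7, and 4.283 for Ccl2 and Ccl5, the widest of the 36 pairs of tested members.

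Summed over the 10 members, the counts came to 2021 to 2113 CPM in healthy blood, 1122 to 1371 CPM in LLC blood and 3045 to 4609 CPM in LLC tumor, and the 3 groups did not overlap. Ccl6 and Ccl9 gave 92.2 to 94.9% of the members' counts in healthy blood, 98.3 to 98.6% in LLC blood and 74.2 to 77.1% in LLC tumor, as shares of counts not corrected for gene length. The other 8 genes together gave 105 to 164 CPM in healthy blood, 15.7 to 23.7 CPM in LLC blood and 734 to 1187 CPM in LLC tumor.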

How the data were processed

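RNA-seq of 9 libraries was used, and the other 22 of the 31 samples were not analysed here. The authors deposited a table of estimated counts (expected counts, not normalized, 8.56 to 9.73% of values not whole) and a second table in CPM. The submitters' processing notes name Trim Galore 0.6.7, cutadapt 3.4, STAR 2.6.1d, Salmon 1.9.0, edgeR and the build mm10, with no role or order. Their strand setting is not given in the sources used here.

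Counts were rounded, filtered with filterByExpr, scaled by TMM (factors 0.798 for LLC tumor 1 to 1.067) and tested with the edgeR 4.0.16 quasi-likelihood test in 1 fit of 9 libraries, with Benjamini-Hochberg adjustment over 12337 genes. The script was tested on simulated data. Standard errors are the log2 fold change divided by the root of the F statistic. Printed CPM values use plain library totals, without TMM. Of the 24411 entries, 27 were symbols turned into dates and 4 were duplicate rows, and no member was among them. The deposited CPM values gave whole reads for 100% of entries (tolerance 0.01 reads) in 10693 genes holding 88.8 to 91.7% of the counts, and edgeR on those reads called 2584, 6792 and 7236 genes in the 3 comparisons, an alternative added after the files were seen.

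All members were named, with at most 4 genes of each other list (smallest adjusted p, mean of at least 20 CPM) and the 3 genes nearest in pattern. The members and lists were chosen with earlier results of these data known. Alternatives were other scalings, filters, thresholds, DESeq2 1.42.0, limma 3.58.1 (voom with quality weights), a replicate block, the compared libraries alone and each library left out in turn. Identifiers, positions and promoters come from RefSeq tables of GRCm38.p6, the assembly that mm10 denotes. Some genes of the lists are counted but not reported here by name.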

Additional observations from a re-analysis of the deposited data

How the results depend on the processing

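In blood, 5 members were called and all were lower. That count ranged from 1 to 7 when each library was left out in turn, 7 being without LLC tumor 1 (Ccl2 and Ccl9 added), and was 1 (Ccl5) at an adjusted p under 0.01. Ccl5 was called lower in blood under all 19 alternatives (-3.82 to -3.28). Over the 9 left-out libraries the count called lower from LLC blood to LLC tumor ranged from 0 to 1, the 1 being Ccl5 without LLC tumor 1 (-1.45), and the Ccl5 value turned to 0.01 without LLC tumor 2. Ccl12 in blood was not called with limma-voom (-1.82, adjusted p = 0.0923). Of the members' values under alternatives, 480 kept direction and call, 20 lost the call, 10 gained one and 1 changed sign; the cause was not tested. With library totals alone, the median of all genes moved to -0.23 from LLC blood to LLC tumor and to -0.17 from healthy blood, and 36.3% of calls were higher against 48.3%, and 40.5% against 50.4%. With upper-quartile factors 46.3% of blood calls were higher against 59.4%. No called member and no called gene of the other lists changed sign under the 3 other scalings, and no called member lost its call. List genes that lost theirs were Irf3 (-0.26, edgeR adjusted p = 0.0803), Clec10a (-0.39, 0.0522) and Auh (0.32, 0.0714) in blood, Rela (0.07, 0.327) from LLC blood to LLC tumor, and Chuk (0.12, 0.297), Ikbkg (0.04, 0.76) and Mgl2 (0.7, 0.128) from healthy blood to LLC tumor, all with library totals. Auh in blood and Chuk, Ikbkg and Mgl2 lost theirs with upper-quartile factors too, and Ccr2 against healthy blood with relative log expression factors. Counts of 31 or fewer per library limit Ccl7, Ccl12, Ccl22 and Ccl24 in blood.

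The groups share replicate numbers, but the labels do not say that these pair the libraries. Deviations from the group means correlated at -0.145 to 0.324 in the 9 pairs with the same number (3 over 0.1). In the 18 with different numbers they correlated at -0.332 to 0.244 (2 over 0.1). Pairs of LLC blood and LLC tumor with the same number, which could share an animal, gave 0.013, 0.186 and -0.145. These values do not settle whether the numbers pair libraries. As the labels state no pairing, the numbers were not taken as pairs. With the replicate block 5 members were called in blood, Ccl2 (-0.66, edgeR adjusted p = 0.0198) taking the place of Ccl12 (-2.79, edgeR adjusted p = 0.0576), and 2788, 7455 and 8093 genes in all against 2917, 7566 and 8209 without it.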
